A study of Mus musculus with 3 samples.

Results

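The receptors through which lymphoid progenitors sense cytokines were followed in 3 mouse BCR::ABL1+ cell lines. The set holds 10 genes, chosen by symbol from the 50686 genes of the count table: Il7r, Il2rg, Crlf2, Il2ra, Kit, Flt3, Csf1r, Csf2rb, Ifngr1 and Il10ra. All 10 were found. Cells came from bone marrow of C57BL/6 mice homozygous for Cdk6K43M (Cdk6KM/KM), an allele whose CDK6 protein lacks kinase activity, and were transduced with a retrovirus that carries BCR-ABL(p185) and a GFP marker. They grew out as stable lines labelled Pre/Pro-B-cells, in RPMI with serum, 2-mercaptoethanol and antibiotics, and no cytokine is listed in that medium. Line 1, line 2 and line 3 are the labelled replicates 1, 2 and 3 of this 1 group. Whether the lines came from separate mice is not stated, so the spread given here is that between these lines. Wild-type and knockout columns of the table belong to no sample of the labels and were not used, so levels are given per line and no genotypes are compared.

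Poly(A) RNA of each line was sequenced, and the libraries held 19633463 to 25773221 counts. Levels are given as CPM, the usual scaling of counts to library size, after TMM normalization, and genes are compared with each other only as RPKM, CPM per kilobase of annotated exon. A total of 3 counts, up to which a gene at 0 could lie, is worth 0.138, 0.152 and 0.118 CPM in lines 1, 2 and 3. Cdk6 itself gave 450, 334 and 239 CPM. The mutant allele makes a full transcript, so that level does not check the genotype.

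Cytokine receptors of class I, such as the chains for IL-7 and GM-CSF, have no kinase of their own and signal through bound Janus kinases to STAT factors. IL-7 is the main growth factor of mouse B-cell precursors and is bound by IL-7Rα together with the common gamma chain, and TSLP is bound by the same IL-7Rα with the chain encoded by Crlf2. Kit, Flt3 and Csf1r are receptor tyrosine kinases of stem cells, early progenitors and macrophages. BCR::ABL1 is a kinase that activates STAT5 without a cytokine.

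The genes spanned the whole range from abundant to undetected. Csf2rb, Il7r, Ifngr1, Il2rg and Il10ra had at least 664 counts in every line, Crlf2 had 269 to 326, and Il2ra and Flt3 were low and variable. Csf1r had counts in 1 line and Kit in none. Their promoters differ as widely in CpG content. Promoters of 7 of the 10 genes were examined, with sequences from the RefSeq table (GRCm38.p6), and those of Csf1r, Csf2rb and Il10ra were not. The 250 bases before the start held a median of 6 CpG over the 32851 promoters of that table. The windows below are those of Kit, the gene at 0 counts; Il7r, the IL-7 receptor chain; Crlf2, the richest in CpG; and Il2ra, the gene that varied most between the lines. They run 5′ to 3′, leave out bases in annotated exons of the gene, and have each CpG in capitals.
Kit: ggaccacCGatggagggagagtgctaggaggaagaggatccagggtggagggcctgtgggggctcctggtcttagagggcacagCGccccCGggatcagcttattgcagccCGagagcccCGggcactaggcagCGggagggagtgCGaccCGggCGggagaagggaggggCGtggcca
Il7r: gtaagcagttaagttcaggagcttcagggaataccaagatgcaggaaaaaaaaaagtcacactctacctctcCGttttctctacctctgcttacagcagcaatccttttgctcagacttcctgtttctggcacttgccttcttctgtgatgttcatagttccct
Crlf2: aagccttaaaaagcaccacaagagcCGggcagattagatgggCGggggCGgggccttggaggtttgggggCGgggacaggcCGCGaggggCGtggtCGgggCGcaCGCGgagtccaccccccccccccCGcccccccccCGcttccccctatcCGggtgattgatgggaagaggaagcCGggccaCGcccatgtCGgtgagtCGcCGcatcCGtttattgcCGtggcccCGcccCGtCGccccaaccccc
Il2ra: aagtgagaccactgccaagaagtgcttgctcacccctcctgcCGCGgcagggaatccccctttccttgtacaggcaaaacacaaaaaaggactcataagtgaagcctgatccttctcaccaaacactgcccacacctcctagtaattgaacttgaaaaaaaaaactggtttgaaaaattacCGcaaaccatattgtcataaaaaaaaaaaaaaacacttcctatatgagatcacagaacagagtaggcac

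The Kit window lies at chr5:75574737-75574915 on the plus strand, that of Il7r at chr15:9529877-9530040 on the minus strand, that of Crlf2 at chr5:109558994-109559243 on the minus strand and that of Il2ra at chr2:11642542-11642791 on the plus strand. Bases just after the listed start were found in an annotated transcript of the gene for Kit and Crlf2, but not for Il7r and Il2ra. By the annotation used here the whole Il7r window lies within the gene, which extends to base 9530176. Over the full 250 bases Crlf2 held 24 CpG, more than 88.0% of the promoters. Kit held 17 at the first of its 2 listed starts, more than 76.5%. Il7r held 1, more than 7.87% only. Flt3 held 13, Ifngr1 11, and Il2ra and Il2rg 3 each. CpG content did not order the genes by level: Kit, rich in CpG, was at 0, whereas Il7r, poor in CpG, was among the most abundant of the genes per length. The letters TTCNNNGAA, which STAT5 can bind, were searched; they are their own reverse complement, so 1 search covers both strands. They occurred in 7.02% of all the promoters and in 1 of the 7 members examined, Il7r, 142 bases before the RefSeq start. The stretch is at chr15:9530000-9530028 on the minus strand, in an intron of a longer annotated Il7r transcript, with the match in capitals.
Il7r: gttcaggagcTTCAGGGAAtaccaagatg

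A match of letters does not show that a factor binds there, and binding was not measured in these libraries.

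Il7r (ENSMUSG00000003882.4, chr15:9505788-9530176 in mm10, minus strand), which encodes the alpha chain of the IL-7 receptor, gave 1797, 2687 and 2287 counts in lines 1, 2 and 3. These are 82.8, 136 and 89.8 CPM, a mean of 103 ± 29.0 (SD, n = 3). Line 2 was high, and the other lines lay close together. The highest line was 1.64 times the lowest (95% counting interval 1.55 to 1.75, exact conditional binomial), and the counts differed between the libraries in a chi-square test of homogeneity (Benjamini-Hochberg adjusted p = 4.8e-74 over 13974 genes). Without line 2 the remaining range fell to 0.10 on the log2(CPM + 1) scale and Il7r was not called, so its call rests on that line. At this depth such a call compares these libraries, not conditions: 66.8% of all the genes tested were called, and 10.9% when a range of at least 2-fold, taken on the log2(CPM + 1) scale throughout, was required as well.

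Il2rg (ENSMUSG00000031304.18, chrX:101264378-101268255, minus strand) encodes the common gamma chain, shared by the receptors for IL-2, IL-4, IL-7, IL-9, IL-15 and IL-21. Its counts were 764, 664 and 2212, or 35.2, 33.6 and 86.8 CPM. Line 3 stood apart, at 2.58 times the lowest line (95% counting interval 2.37 to 2.82, adjusted p = 5.69e-172 by the chi-square test). Lines 1 and 2 were within 0.07 of each other on the log2 scale, and without line 3 the gene was not called. Predicted gene Gm20489, on the same strand, covers 728 of the 2387 exonic bases of Il2rg and was at 0 counts in all 3 lines. How reads in the shared bases were assigned is not stated, so the level of Il2rg may be understated.

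Il2rg did not move alone along its chromosome. Of 33 genes at a mean of at least 5 CPM that start within 5 Mb of it, 29 (87.9%) were also highest in line 3. Their median deviated from the mean of the lines by −0.36, −0.22 and 0.57 in lines 1, 2 and 3 (log2), beside −0.41, −0.47 and 0.87 for Il2rg itself. Over all 312 such genes of the X chromosome the shift had the same form, with a range of 0.74. After subtraction of the median of the genes around it, line by line, an alternative added after the data were seen, the range of Il2rg dropped from 1.34 to 0.56 and was under 2-fold.

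The ratio of the IL-7 receptor chains differed between lines. Per exon length, Il7r stood at 1.20 and 2.07 times Il2rg in lines 1 and 2, and at 0.529 times in line 3. Line 3 was the line in which the shared chain exceeded the specific chain on this length. With the bases shared with Gm20489 left out of the length of Il2rg, an alternative added after the data were seen, the ratios were 0.837, 1.44 and 0.368, and the shared chain exceeded the specific chain in line 1 as well. Line 3 had the lowest ratio with either length.

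Crlf2 (ENSMUSG00000033467.12, chr5:109554709-109558993, minus strand), the TSLP-specific chain, gave 326, 324 and 269 counts, or 15.02, 16.4 and 10.6 CPM (mean 14.0 ± 3.06, SD, n = 3). Line 3 was lowest, 1.55-fold under line 2 (95% counting interval 1.32 to 1.83, adjusted p = 3.78e-07 by the chi-square test). Without line 3 the range was 0.12 on the log2 scale and the gene was not called. The median of 65 genes within 5 Mb was lowest in line 3 too, at 0.27, −0.04 and −0.21 beside 0.12, 0.24 and −0.35 for Crlf2 (log2). After its subtraction Crlf2 was at −0.16, 0.27 and −0.15, so line 2 remained the highest and lines 1 and 3 were level. With the median of the whole chromosome subtracted instead, Crlf2 was at −0.157, 0.311 and −0.163. Il7r stood at 1.77, 2.66 and 2.73 times Crlf2 per length, so the chain of TSLP reception that is shared with IL-7 was the more abundant in all 3 lines.

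Il2ra (ENSMUSG00000026770.5, chr2:11642807-11693193, plus strand) encodes CD25, the alpha chain of the IL-2 receptor, which in mouse marrow also marks late pre-B cells. It gave 31, 244 and 106 counts, or 1.43, 12.4 and 4.16 CPM, with all 3 lines apart. Line 2 was 8.65 times line 1 (95% counting interval 5.94 to 13.02, adjusted p = 1.85e-50 by the chi-square test), the widest fold among the genes of the set. The genes around it did not follow: the median of 21 genes within 5 Mb had a range of 0.06 against 2.46 for Il2ra on the log2(CPM + 1) scale. Il2rb, the beta chain that IL-2 signalling also needs, was at 0, 0 and 3 counts, at or under the limit of 3 counts. In bulk RNA, fewer cells with a transcript and less transcript per cell cannot be told apart.

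The B-cell precursor markers gave values beside these. All 16 were at a mean of at least 1 CPM, and all 16 were called, 10 of them with line 2 highest, against 66.8% and 20.6% of all genes tested. Of the 16, 4 had a range of at least 2-fold, against 10.9% of all genes tested, and these differed in their highest line. Rag1, a recombinase of receptor gene assembly, was at 22.4, 91.4 and 32.4 CPM. Rag2, its partner, was at 12.4, 31.8 and 11.0 CPM, so both were high in line 2, as Il7r and Il2ra were. Dntt, at 0.967, 1.62 and 4.28 CPM, was highest in line 3, and Ms4a1, at 2.72, 1.42 and 0.432 CPM, in line 1. The summed level of the list was 5188, 5898 and 5435 CPM. Its part in the receptor values was not tested.

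Csf2rb (ENSMUSG00000071713.4, chr15:78325752-78353847, plus strand), the common beta chain of the receptors for GM-CSF, IL-3 and IL-5, was the most abundant of the genes. Its counts were 6613, 6639 and 7620, or 305, 336 and 299 CPM (mean 313 ± 20.1, SD, n = 3). The lines differed by 1.12-fold at most (95% counting interval 1.09 to 1.16). This passed the chi-square test (adjusted p = 5.18e-12) but not without line 2, when the log2 range was 0.04. In mice a second beta chain, Csf2rb2, serves IL-3 alone and lies beside Csf2rb on chromosome 15. It was at 78.7, 91.5 and 73.8 CPM. Of all 50-base stretches of Csf2rb transcripts, 12.3% occur in other genes, most in Csf2rb2, so part of the reads could have been lost or assigned to either copy.

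The alpha chains that give this receptor its ligand were far less abundant. Csf2ra, for GM-CSF, was at 6.86, 6.13 and 5.77 CPM and was not called (adjusted p = 0.377 by the chi-square test). Il3ra, for IL-3, was at 12.6, 12.1 and 5.18 CPM, with line 3 low. Il5ra, for IL-5, was at 0.184, 2.74 and 0.824 CPM, with line 2 high. Per length Csf2rb stood at 17.5, 21.6 and 20.5 times Csf2ra and at 9.88, 11.4 and 23.5 times Il3ra, an excess of the shared chain in every line. Of these 4 partners, Csf2rb2 included, 3 were called and 2 had a range of at least 2-fold, Il3ra and Il5ra. Over all genes tested the shares were 66.8% and 10.9%.

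Ifngr1 (ENSMUSG00000020009.12, chr10:19591949-19610229, plus strand), the ligand-binding chain of the interferon gamma receptor, gave 1118, 1213 and 2499 counts. These are 51.5, 61.5 and 98.1 CPM (mean 70.4 ± 24.5, SD, n = 3). Line 3 was 1.90 times line 1 (95% counting interval 1.77 to 2.05, adjusted p = 1.15e-85 by the chi-square test). Of 21 genes around it, 13 (61.9%) were also highest in line 3. Their median over all 21 was highest there too, with a range of 0.19, against 0.92 for Ifngr1 itself (log2). Its signalling partner Ifngr2 was at 49.2, 65.6 and 66.8 CPM, and per length Ifngr1 stood at 1.39, 1.24 and 1.94 times Ifngr2.

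Il10ra (ENSMUSG00000032089.16, chr9:45253837-45269149, minus strand), the IL-10-binding chain, gave 783, 814 and 1066 counts, or 36.1, 41.2 and 41.9 CPM. Line 1 was low and lines 2 and 3 were level. The highest line was 1.16 times the lowest (95% counting interval 1.06 to 1.27, adjusted p = 0.00619 by the chi-square test), and the gene was not called without line 1, when the log2 range was 0.02. Il10rb, the chain that IL-10 shares with related cytokines, was at 13.3, 17.5 and 15.8 CPM. Il10ra was 2.95, 2.57 and 2.89 times Il10rb per length. Csf2rb and Il10ra were the steadiest of the set, at 6.40% and 7.99% coefficient of variation in CPM.

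The receptor tyrosine kinases were low or undetected. Flt3 (ENSMUSG00000042817.15, chr5:147330741-147400489, minus strand), the receptor of FLT3 ligand on early lymphoid progenitors, gave 9, 57 and 41 counts, or 0.415, 2.89 and 1.61 CPM. Line 1 was low. Line 2 was 6.96 times line 1, with a wide 95% counting interval of 3.42 to 16.0 (adjusted p = 8.08e-09 by the chi-square test). On the log2(CPM + 1) scale, which understates changes of low genes, the range was 1.46, and it was under 1 without line 1 (0.58) or without line 2 (0.87). Genes around Flt3 went another way, highest in line 1: the median of 65 genes deviated by 0.25, −0.07 and −0.19 and Flt3 by −0.78, 0.68 and 0.10 (log2). The genes of chromosome 5 near Crlf2 and Kit were also highest in line 1, with medians of 0.27 over 65 genes and 0.23 over 26 genes. The shift spanned the chromosome: over its 618 genes at a mean of at least 5 CPM the median was 0.27, −0.07 and −0.19. Of those, 542 (87.7%) were highest in line 1. Cdk6, on the same chromosome, was highest in line 1 as well.

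Kit (ENSMUSG00000005672.12, chr5:75574916-75656722, plus strand), the stem cell factor receptor, was at 0 counts in lines 1, 2 and 3, which allows up to 0.152 CPM in the shallowest library. Csf1r (ENSMUSG00000024621.15, chromosome 18), the receptor of the macrophage growth factor CSF1, gave 0, 0 and 4 counts. Exons of Hmgxb3, on the other strand, cover 873 of the 5774 exonic bases of Csf1r. Hmgxb3 was level between the lines, at 68.4, 70.1 and 69.6 CPM. The strand setting is not stated, and whether the 4 counts of Csf1r come from reads of Hmgxb3 was not tested. Pdgfra and Pdgfrb, the related kinases that neighbour Kit and Csf1r in the genome, were at 0 counts in every line.

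**Figure D1:**
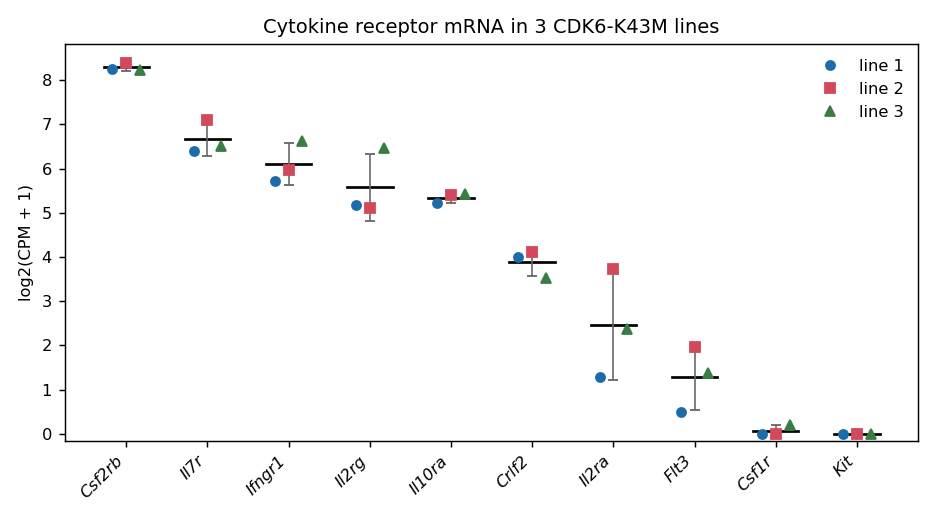
Level of each receptor gene in the 3 Cdk6KM/KM lines as log2(CPM + 1), with the genes in order of their mean. Each point is 1 line, black bars are means and grey bars are SDs over the 3 lines. Il2ra and Flt3 spread widest, Csf2rb and Il10ra lie close together, and Kit is at 0 in every line.

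Of the 10 genes, 8 reached 10 counts over the lines and could be tested, and all 8 were called, against 66.8% of all genes tested. Those 8 passed a filter on low values, and Kit and Csf1r did not. A range of at least 2-fold was met by 3 of the 8, Il2rg, Il2ra and Flt3, against 10.9% of all genes. Il2rg no longer met it after subtraction of the genes around it, whose own median range was 0.92. The median range of the 8 was 0.81 and that of all genes tested 0.32 (log2(CPM + 1)). Line 2 was highest for 5 of them, Il7r, Crlf2, Il2ra, Flt3 and Csf2rb, whereas 20.6% of all genes tested were called with line 2 highest. Line 3 was highest for Il2rg, Ifngr1 and Il10ra (26.2% of all genes). Line 1 was highest for 0 of the 8 (20% of all genes). These are counts over few genes, and no test over the set was made.

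**Figure D2:**
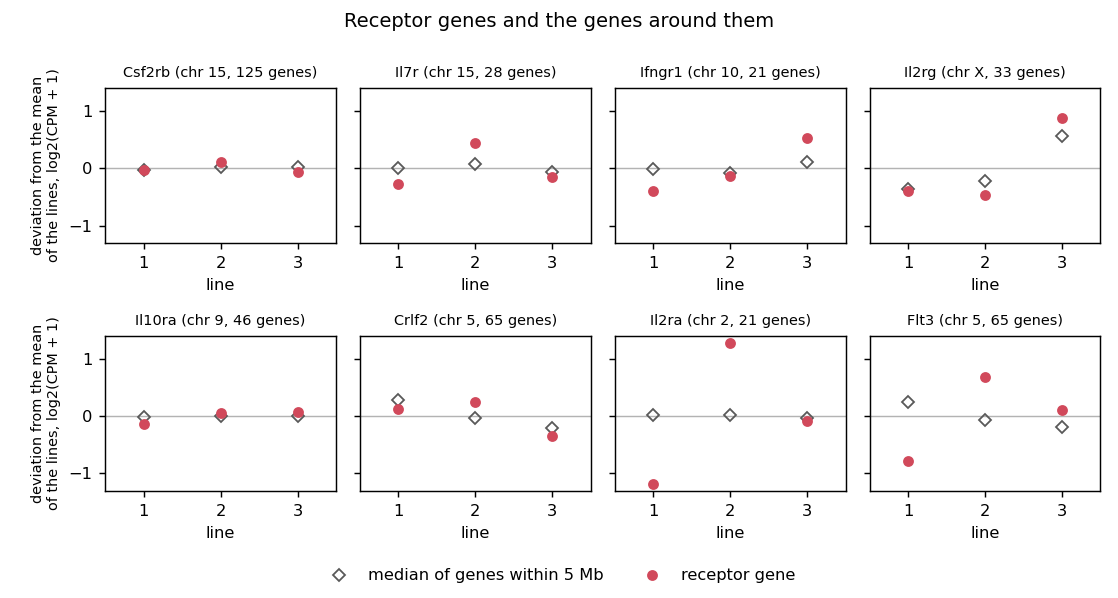
Deviation of each tested receptor gene (filled circles) and of the median of the genes that start within 5 Mb of it (open diamonds) from the mean of the 3 lines, in log2(CPM + 1), by line. The diamonds follow the circles for Il2rg, stay near 0 for Il2ra, and go another way for Flt3. For Ifngr1 they are highest in line 3, as the circles are, with a much smaller range.

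Per exon length the order was Csf2rb (43.1 ± 2.76 RPKM, SD, n = 3), Ifngr1 (24.7 ± 8.62), Il7r (22.1 ± 6.22), Il2rg (21.7 ± 12.7), Il10ra (11.4 ± 0.907), Crlf2 (9.36 ± 2.04), Il2ra (1.05 ± 0.996) and Flt3 (0.265 ± 0.200), with Csf1r and Kit last. The lines of Csf2rb did not overlap those of Ifngr1. Ifngr1, Il7r and Il2rg overlapped each other, and their order changed from line to line, so these neighbours did not differ beyond their spread. The ranges of Il10ra and Crlf2 also overlapped, and so did those of Il2ra and Flt3. Within each of the 3 lines Il10ra was above Crlf2 and Il2ra above Flt3. For Il10ra and Crlf2 the gap in line 1 was narrow, at 10.3 and 10.05 RPKM. It was reversed with the longest Crlf2 transcript, of 1405 bases, as the length. With the longest transcript as the length, Il7r and Il2rg changed places. Without the bases shared with Gm20489 Il2rg was at 31.3 ± 18.2 (SD, n = 3) per kilobase.

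**Figure D3:**
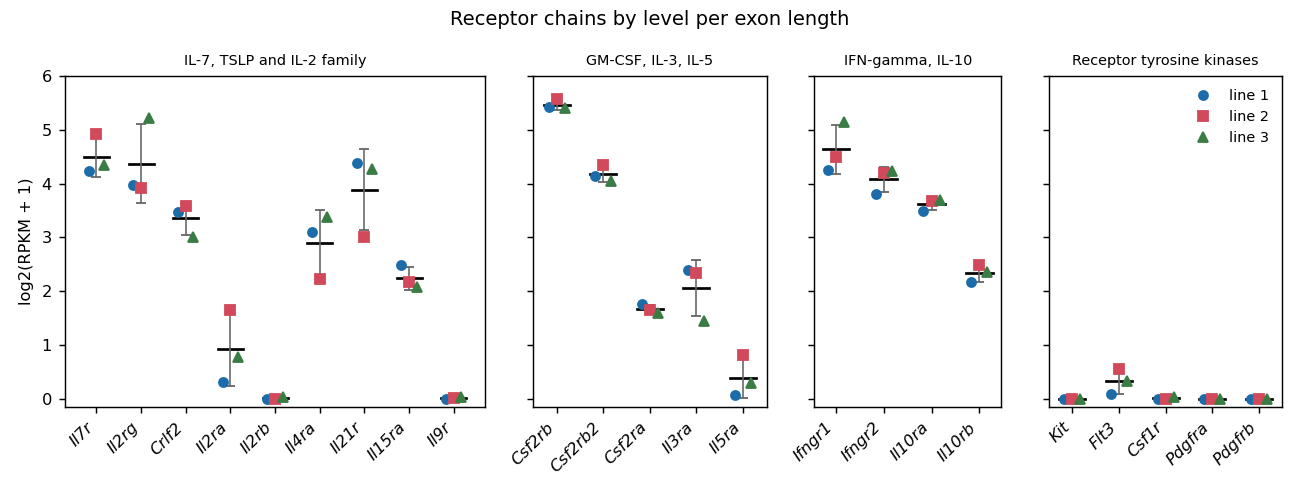
Receptor chains grouped by ligand family, as log2(RPKM + 1), with 1 point per line, black bars for means and grey bars for SDs over the 3 lines. The mean of Csf2rb lies above those of its partners, and Il2rb and Il9r lie at or near 0. Of the receptor tyrosine kinases Flt3 is the highest, though low in every line and close to 0 in line 1.

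Among the other partners of the gamma chain and of TSLP reception, 3 of 6 were at a mean of at least 1 CPM, and all 3 were called. Il4ra, the IL-4 receptor chain, was at 45.7, 22.0 and 56.7 CPM, and Il21r, the IL-21 receptor chain, at 66.0, 23.6 and 60.7 CPM. Both were low in line 2, in which Il7r was high. Il15ra, the IL-15-binding chain, was at 20.4, 15.6 and 14.3 CPM. Il9r was at 0, 1 and 4 counts. In the wider families, 7 of 15 further class I receptors could be tested, of which 5 were called and 3 had a range of at least 2-fold. Of 8 class II receptors 6 could be tested, of which 5 were called and 1 had such a range. These calls stand against 66.8% and 10.9% of all genes tested.

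Few of the ligand genes had counts in the lines. Of 16 ligand genes, 10 were at 0 counts in every line, among them Il2, Tslp and Kitl, and 2 were at a mean of at least 1 CPM. Csf1, whose receptor gave 0, 0 and 4 counts, was at 76.1, 67.9 and 62.6 CPM. Flt3l, the FLT3 ligand, was at 3.46, 2.33 and 2.04 CPM, highest in line 1, in which Flt3 was lowest. Il7 gave 13, 10 and 27 counts and was not called (adjusted p = 0.0904 by the chi-square test). All 4 Janus kinases were present, 3 of them were called, and none had a range of 2-fold, against 66.8% and 10.9% of all genes tested. Jak3, which binds the gamma chain, was at 48.2, 57.0 and 43.2 CPM, and Tyk2 was not called (adjusted p = 0.656 by the chi-square test).

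The labelled cell type was checked against markers. The B-cell precursor list, with all 16 genes at a mean of at least 1 CPM, was the highest of the lists in every line. Of 11 myeloid markers 2 were at a mean of at least 1 CPM, and Elane, Ly6g, S100a8, S100a9 and Cebpa were at 0 counts in every line. The 2 were Fcgr3 and Lyz2, and Lyz2 was at 1.66, 2.03 and 3.57 CPM, highest in line 3. Itgam, Adgre1 and Cd14 gave 3, 2 and 1 counts in line 3 and 0 in lines 1 and 2. Mpo gave 2, 1 and 2 counts in lines 1, 2 and 3. The summed myeloid level was 4.98, 5.72 and 24.6 CPM, with line 3 high as for Il2rg and Ifngr1, and most of it in line 3 was Fcgr3, an Fc receptor, at 3.22, 3.65 and 20.7 CPM. Its part in the receptor values was not tested. All 5 mast cell and basophil markers were at 0 counts in every line, as Kit was. Of the stem and multipotent progenitor markers 1 of 6 was at a mean of at least 1 CPM, Ly6a, and Cd34 was at 0 counts. The T-cell list held 1 of 8, Lck, with Cd3e at 0, the NK list 0 of 5, the erythroid and megakaryocytic list 1 of 7, Hbb-bt, and the stromal and endothelial list 1 of 6, Pecam1, an adhesion molecule that leukocytes also carry.

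**Figure D4:**
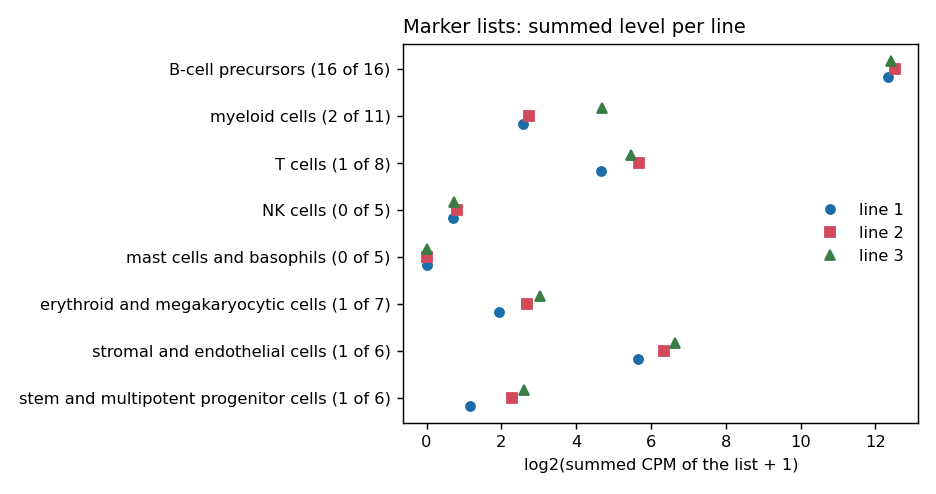
Summed level of each marker list as log2(summed CPM + 1), with 1 point per line. The numbers beside each list say how many of its genes were at a mean of at least 1 CPM. The B-cell precursor list is far above all others in the 3 lines, and the myeloid list is higher in line 3 than in lines 1 and 2.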

How the data were processed

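RNA-seq of 3 Cdk6KM/KM BCR::ABL1+ lines was used. Per the labels and the study's methods, reads were trimmed with Trimmomatic, aligned to mm10 with STAR and counted over exons of Gencode M13 with FeatureCounts, and the authors deposited raw counts per gene. Strand setting and treatment of multi-mapping reads are not given in the sources used here, and the labels and the methods name different library kits. The table held 50686 genes and 6 further columns that were not used. Identifiers of 50376 genes matched Gencode M21 for symbols, coordinates and exon lengths, and 0 rows named no gene. Counts were TMM-normalized with edgeR 4.0.16 in R 4.3.3 to CPM, and ranges were taken on log2(CPM + 1). Libraries held 21569845, 19633463 and 25773221 counts. Intervals and count limits cover counting error only.

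Each gene with a summed count of 10 or more was tested by chi-square homogeneity of counts against normalized library sizes, Benjamini-Hochberg adjusted over all of them, at 0.05. The test was tried on simulated data that held counting error alone, so its behaviour under wider spread between lines was not checked. A second rule also asked for a range of 1 (log2), that is 2-fold. Leave-one-out fits were filtered and normalized anew. Other alternatives were scaling by the size factors of DESeq2 1.42.0 or by library size only, other filters, a pseudocount of 0.1 CPM, longest-transcript lengths and other windows of surrounding genes. All 10 members were named, and of other lists genes at a mean of at least 1 CPM. Genes below that level, and genes singled out for a shared highest line, were named after their values were seen. Members and lists were chosen with earlier results of these data known. Promoter sequences are from RefSeq.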

Additional observations from a re-analysis of the deposited data

How the results depend on the processing

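No paired analysis was possible because the labels give 1 group. DESeq2 size factors, library size alone and the absence of a filter left all 8 tested receptor genes called and the same 3 at a range of at least 2-fold. With at least 10 counts asked of every line, Flt3 was no longer tested, which left 7 and 2. Leaving out 1 line gave 6 to 7 receptor genes called and 2 at 2-fold: Il7r and Csf2rb were lost without replicate 2, Il2rg and Crlf2 without replicate 3 and Il10ra without replicate 1. Over all genes, 9341 were called, and 6098 to 7267 when 1 line was left out, lowest without replicate 3. Genes at a range of at least 2-fold numbered 1530, then 620 to 979 with 1 line left out, lowest without replicate 3, and 2535 with a pseudocount of 0.1 CPM. A pair of lines can differ in fewer genes than 3 by construction, and the lower pseudocount widens the range of low genes. Under the other scalings, filters, pseudocount and pairs of lines, where both lines were kept, the line that was highest for a tested receptor gene stayed above the line that was lowest. In the alternatives added after the data were seen, subtraction of the genes within 5 Mb left lines 1 and 3 level for Crlf2. A shorter length for Il2rg brought the ratio of Il7r to Il2rg in line 1 from 1.20 to 0.837. With the longest transcript as the length, Il7r and Il2rg changed places. Depth limits Flt3, Csf1r and Kit most: at 9 counts in line 1 the fold of Flt3 is uncertain by a factor of several, and for Kit only an upper limit can be given.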

Other observations

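Il4ra and Il21r, chains of the IL-4 and IL-21 receptors that partner the gamma chain, are neighbours on chromosome 7, with facing ends 23955 bases apart. They were named after their values were seen. In lines 1, 2 and 3 Il4ra deviated from the mean of the lines by 0.24, −0.78 and 0.54, and Il21r by 0.52, −0.93 and 0.40 (log2(CPM + 1)), so both were lowest in line 2. The median of 94 genes that start within 5 Mb deviated by −0.04, 0.04 and 0.00443. The chi-square test called both genes (adjusted p = 2.2e-68 and 1.07e-92).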
